A study of Homo sapiens with 24 samples.

Results

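Ribosomal protein genes encode the proteins of the cytoplasmic ribosome. They were picked here by symbol alone: every gene present in both count tables whose symbol was RPL or RPS followed by a number, with or without a final A or X, or was RPLP0, RPLP1, RPLP2 or RPSA. The rule took 77 of the 28277 genes shared by the tables, 46 of the large subunit and 31 of the small subunit, and used no measured value. PolyA-enriched RNA was sequenced from the high-grade serous ovarian carcinoma lines PEO1 and PEO4, derived from 1 patient before and after the tumour became resistant to chemotherapy. PEO1 carries a nonsense mutation in BRCA2, a homologous recombination gene, and PEO4 a reversion that restores the reading frame. Both are established lines, and the lines differ in more than BRCA2. The labels give every library the same tissue, human ovarian adenocarcinoma.

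There were 8 groups of 3 libraries. PEO1 A and PEO4 A were untreated and both carry the genotype label WT. PEO1 B carries the label BRCA2+, because this culture of PEO1 had regained BRCA2 by a spontaneous reversion, and the study calls it PEO1 BRCA+. PEO4 B is labelled WT. PEO1 B and PEO4 B were each sequenced untreated, after 2 h and after 6 h in medium with 5 µM pyridostatin (PDS), a small molecule that binds and stabilises G-quadruplexes, the 4-stranded structures that guanine-rich DNA and RNA can form. No vehicle-treated library at 2 or 6 h is among the groups. The A and B libraries were prepared and counted separately, the A medium also held sodium pyruvate, and values were therefore tested only within a table. The labels do not say that the 3 replicates were separate cultures. The study calls its expression replicates of the lines biological and the PDS data triplicate, without saying how the cultures were grown apart. The p-values measure the spread between these libraries, which may be technical in part.

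The mature ribosome joins a small subunit, which holds the mRNA and the decoding site, and a large subunit, which forms the peptide bond and the tunnel through which the new chain leaves. Nearly every ribosomal protein is present in a single copy per ribosome, apart from the stalk proteins RPLP1 and RPLP2. Their mRNAs are short, abundant and long-lived. Most start with a C followed by a run of pyrimidines, the terminal oligopyrimidine or TOP motif, through which the kinase mTOR and the RNA-binding protein LARP1 control how much of each is translated and how much is stored. The genes are also linked to stress: when ribosome assembly fails, free RPL5 and RPL11 bind and block the ubiquitin ligase MDM2.

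The letters at the start of the transcripts are shown first, since they are what the class is known for. RefSeq gives 1 annotated start for each of 62 of the 77 genes in the GRCh38.p14 promoter table. A pyrimidine start, here a C and at least 4 further pyrimidines beginning within 5 bases of that start, was found in 50 of the 62, or 80.6%, against 21.1% of 27305 promoters in the table. Each line below gives 30 bases, 15 before and 15 from the annotated start, 5′ to 3′ on the gene's strand, with the pyrimidine run in capitals. The first group holds 4 of the members that rose by more than 1 on the log2 scale in both lines after 2 h of PDS. They too were taken from those with a run.

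RPL38, chr17:74203663-74203692, + strand: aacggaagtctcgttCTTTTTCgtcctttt
RPS14, chr5:150449725-150449754, - strand: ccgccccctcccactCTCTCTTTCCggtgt
RPL26, chr17:8383179-8383208, - strand: aagcagcgtgtagttCTCTTCCCTTTTgcg
RPL24, chr3:101686704-101686733, - strand: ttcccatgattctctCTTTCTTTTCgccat

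The second group holds 3 of the members that did not pass the test in PEO1 B at either time, taken from those with a run. RPL15 and RPL6 also did not pass at either time and had no match at the annotated start. RPSA, which did not pass either, had a match, and RPS2 had no promoter sequence. Since both groups were picked for having a run, setting them side by side cannot show whether starts differ with the response.

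RPLP0, chr12:120201097-120201126, - strand: gcgcgggcgcgaggcCCTTCTCTCgccagg
RPL29, chr3:51995881-51995910, - strand: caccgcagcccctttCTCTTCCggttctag
RPL39, chrX:119791616-119791645, - strand: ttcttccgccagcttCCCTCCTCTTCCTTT

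The third group holds RPS29 and RPS26, which had no match at the annotated start. RPS29 had the highest fold change of all members at 2 h in both lines, and RPS26 was the member that rose between 2 and 6 h in PEO4 B.

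RPS29, chr14:49598696-49598725, - strand: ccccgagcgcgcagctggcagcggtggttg
RPS26, chr12:56041903-56041932, + strand: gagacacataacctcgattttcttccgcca

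The absence of a match says only that these letters were not in this window, since cells can start transcription at other bases than the annotated one.

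Library totals were 32528913 to 63882077 counts in the A table, 18699929 to 22375644 in the untreated B libraries and 33260167 to 43713947 in the treated B libraries. Every PDS library was thus deeper than every untreated B library, and ribosomal RNA fell from 0.217 to 0.474% of counts in untreated B libraries to 0.0163 to 0.0369% in treated ones. The part of these library differences in the PDS comparisons was not tested. With ribosomal and mitochondrial RNA left out, the members' share in untreated PEO1 B was 4.571% in place of 4.555%. That step removed little, since ribosomal RNA was 0.474% of counts at most, and it says nothing on those differences. In PEO1 A the share stayed at 6.494%, so mitochondrial genes held next to no counts there. Of the markers of high-grade serous carcinoma, the 8 genes summed to 4850 to 14100 CPM per library, that is counts scaled to a common library size. Fibroblast markers summed to 2.73 to 36.9 CPM, leukocyte markers to 22.8 to 78.2 CPM with PTPRC and CD3E at 3 counts or fewer, and endothelial markers to 0.061 to 2.72 CPM. Several of these sums moved with PDS, and their part in the members' changes was not tested. In PEO4 B the 4 fibroblast markers went from 29.4 to 31.0 CPM untreated to 8.47 to 12.2 CPM at 2 h and 3.29 to 4.49 CPM at 6 h, and the 3 leukocyte markers from 32.2 to 54.5 CPM to 67.3 to 78.2 CPM at 2 h. In PEO1 B the carcinoma markers went from 9450 to 9610 CPM to 13000 to 14100 CPM at 2 h, and the fibroblast markers from 5.14 to 7.19 CPM to 3.37 to 3.62 CPM. These markers were read in cultured carcinoma lines, and apart from PTPRC and CD3E the leukocyte sum is CD68 alone. A change in such a sum is therefore not read as a change in the number of fibroblasts or leukocytes. In bulk RNA, fewer cells of a type and less RNA per cell cannot be told apart.

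A few members could not be read from the counts. RPS18 had 0 to 4 counts in every library and was not tested, and RPS9, which helps form the mRNA entry site, had 123 to 226 counts in A and 65 to 149 in B. Both genes have spliced copies on alternative contigs of the genome build, on 4 contigs for RPS18 and 9 for RPS9. Whether reads were lost to these copies was not tested, and the levels of both genes here are not read as their abundance. RPL17, RPS10 and RPL36A share exons with read-through genes. In the A table RPL17 had 488 to 877 counts and its partner RPL17-C18orf32 had 0, whereas in B RPL17 had 9642 to 38777 and the partner 9934 to 38390. RPS10 had 56 to 182 counts in A and 5334 to 31416 in B, and RPL36A had 8 to 21 in A and 3653 to 15800 in B. These gaps divide the 2 tables, not the cell lines, and levels of these genes were not compared across tables. RPS29 spans RN7SL1, an unrelated small RNA gene, which had 90 to 716 counts in B against 2496 to 20477 for RPS29. The 75 members tested in each table passed the filter on low counts with all libraries considered together.

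The ribosomal protein genes took more of the counts after PDS in both lines. In PEO1 B they held 4.56 ± 0.0888% (SD, n = 3) of gene counts untreated, 5.86 ± 0.244% after 2 h and 5.82 ± 0.373% after 6 h. The lowest treated library, at 5.47%, lay above the highest untreated one, at 4.64%. In PEO4 B the share went from 4.79 ± 0.112% to 7.59 ± 0.347% at 2 h and 5.94 ± 0.0431% at 6 h. The 3 PEO4 B groups did not overlap, with 4.67 to 4.88% untreated, 7.30 to 7.97% at 2 h and 5.90 to 5.99% at 6 h. The lines' libraries did not overlap untreated, where PEO1 B reached 4.64% and PEO4 B began at 4.67%, nor at 2 h, and overlapped at 6 h. Without PDS the A pair had 6.49 ± 0.392% in PEO1 A and 5.37 ± 0.334% in PEO4 A, again without overlap, 6.11 to 6.90% against 5.14 to 5.76%. No p is given for a sum over genes picked with earlier results known.

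**Figure D1:**
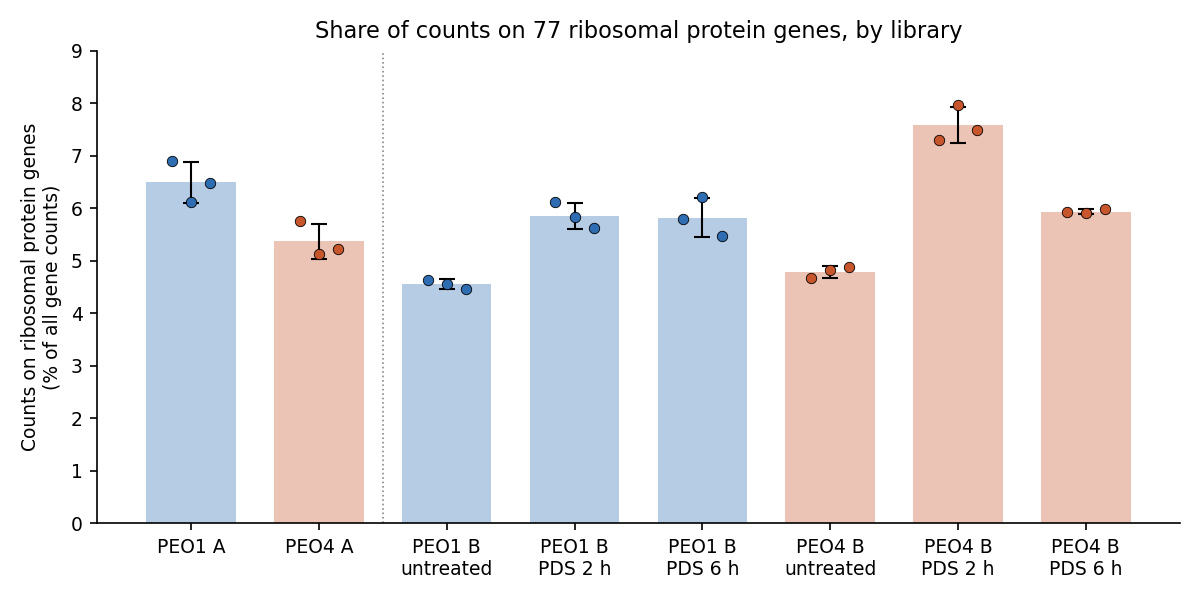
Percent of gene counts on the 77 ribosomal protein genes in the 8 groups, with bars at the mean, error bars at 1 SD and a point for each of the 3 libraries. The PEO4 B group at 2 h of PDS is the highest at 7.59%, and all treated B libraries lie above all untreated B libraries.

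Among the 100 genes with the highest mean CPM, members numbered 14 in untreated PEO1 B and 23 at both times of PDS. In PEO4 B they numbered 16 untreated, 29 at 2 h and 20 at 6 h, and in the A pair 26 in PEO1 A and 20 in PEO4 A. A few genes carried much of the sum. The 10 most abundant members held 37.3% of the members' counts in untreated PEO1 B and 31.6% at 6 h. In PEO4 B the same measure was 39.3% untreated and 36.7% at 6 h. The member with the most counts was RPS2, at the mRNA entry of the small subunit, in PEO1 B with 6.70% of the members' counts untreated, 5.10% at 2 h and 4.86% at 6 h. In PEO4 B it was RPL8, which lies near the peptidyl transferase centre, with 6.17%, 6.14% and 6.77%.

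Per kilobase of transcript, the highest mean levels in the B table were those of RPS2 at 3314 CPM per kb, RPL13A at 3231 and RPL8 at 2501. In the A table they were RPL13A at 3762, RPS2 at 3669 and RPS12 at 2529 CPM per kb. RPL13A depends on the transcript chosen: with the median length of its annotated transcripts it stood at 1833 in B and 2135 in A. At the other end were the genes that could not be read, RPS9 at 4.86 CPM per kb in B, RPL36A at 0.291 in A, and RPS18 under 0.04 in both tables. The ratio of summed large-subunit to small-subunit counts was lower after PDS in both lines, at a mean of 1.43 untreated and 1.37 and 1.38 at 2 and 6 h in PEO1 B and at 1.63, 1.52 and 1.51 in PEO4 B. Treated and untreated libraries did not overlap in this ratio in either line.

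The PDS comparisons set the libraries at 2 and 6 h of PDS against untreated ones of the same line, without a vehicle control. In PEO1 B at 2 h, 66 of the 75 members rose and 1 fell (edgeR quasi-likelihood test, adjusted p under 0.05 over all genes), where 26.4% of all 17020 tested genes were called higher and 26.2% lower. The members' median log2 fold change was 0.59 with quartiles of 0.37 and 0.81, beside -0.03 for all genes. Without reference to a test, 69 members had all 3 treated libraries above all 3 untreated ones, against 30.7% of all genes. Rises of more than 1 on the log2 scale were fewer, at 7 of 75 members and 1.18% of all genes: RPS29 1.64, RPL38 1.44, RPS14 1.30, RPL26 1.12, RPL37 1.10, RPL24 1.01 and RPL37A 1.01.

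RPS29, a zinc-binding protein of the small subunit mutated in some Diamond-Blackfan anaemia, stood at 119.9, 116.8 and 109.6 CPM in the untreated PEO1 B libraries. After 2 h of PDS it stood at 387.1, 350.5 and 342.4 CPM. Its lowest treated library was far above its highest untreated one, and the log2 fold change was 1.64 with a standard error (SE) of 0.0693 (edgeR, adjusted p = 8.18e-15). RPL38, known from mice for a role in translating Hox mRNAs, went from 68.67, 65.73 and 65.99 CPM to 184, 185.5 and 172.2 CPM, a log2 fold change of 1.44 (SE 0.0592, edgeR adjusted p = 6.33e-15). RPS14, the gene lost in the 5q- syndrome, went from 441.1, 426.3 and 414.6 CPM to 1131, 1037 and 981.7 CPM, a log2 fold change of 1.30 (SE 0.0665, edgeR adjusted p = 3.11e-13). None of the 3 genes had overlapping groups.

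RPLP0, the base of the stalk that recruits translation factors, is often used to normalise RNA measurements. In PEO1 B it was at 2031, 1964 and 1914 CPM untreated and at 2115, 1917 and 1906 CPM at 2 h, so the groups overlapped throughout, with a log2 fold change of 0.01 (SE 0.0588, edgeR adjusted p = 0.931). Members that also did not pass at 2 h were RPL15 at 0.09, RPL29 at 0.04, RPL39 at 0.08, RPL6 at 0.08, RPS2 at 0.12 and RPSA at 0.09. These estimates lay above 0 and below the members' median. Scaled by library totals in place of trimmed means, which moved the median of all genes by -0.17, RPLP0 was at -0.14.

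RPS9 was the member that fell, by 1.37 on the log2 scale (SE 0.155, edgeR adjusted p = 7.94e-08), where 6.39% of all genes were lower by more than 1. Its libraries were at 5.751, 5.123 and 4.917 CPM untreated and 2.267, 1.887 and 1.939 CPM at 2 h. The groups did not overlap, on the few counts described above.

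**Figure D2:**
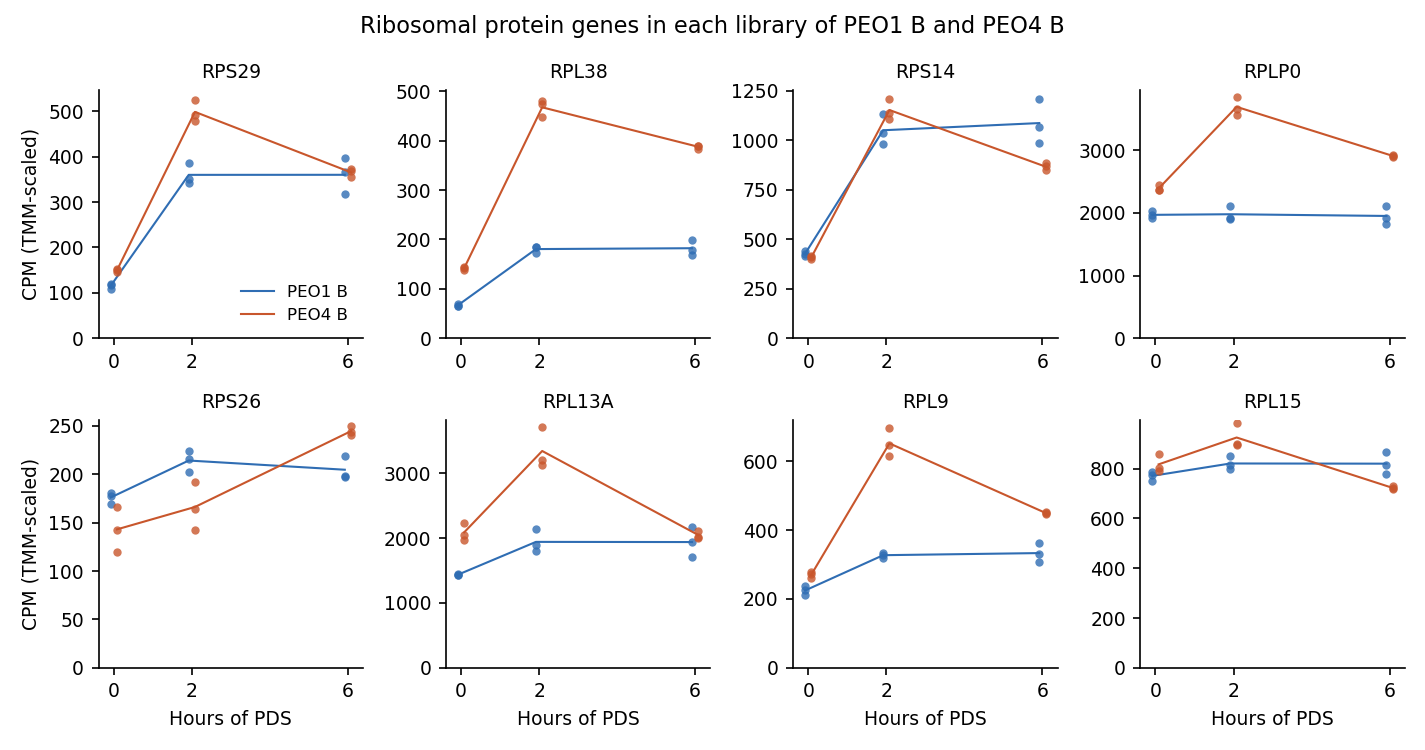
CPM (scaled by trimmed mean of M-values) of RPS29, RPL38, RPS14, RPLP0, RPS26, RPL13A, RPL9 and RPL15 in each B library against hours in 5 µM PDS, with points for libraries and lines through group means. RPS29, RPL38 and RPS14 rise in both lines by 2 h, RPLP0 is at 1970 CPM untreated and 1979 CPM at 2 h in PEO1 B and at 2390 and 3693 CPM in PEO4 B, and RPS26 in PEO4 B is highest at 6 h.

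At 6 h in PEO1 B, 65 members were higher than untreated and 1 lower, with 27% of all genes called higher and 26% lower, and the median was again 0.59. In 68 members the libraries did not overlap, all 6 h values being higher, against 31.1% of all genes. RPS29 at 1.64, RPL38 at 1.45, RPS14 at 1.35, RPL26 at 1.12, RPL37 at 1.08 and RPL24 at 1.04 exceeded 1, which 1.29% of all genes did. Those not passing were RPL10 at 0.10, RPL15 at 0.09, RPL29 at 0.10, RPL39 at 0.11, RPL6 at 0.09, RPLP0 at -0.01, RPS2 at 0.04, RPS26 at 0.22 and RPSA at 0.04. Both time points share the untreated libraries, so their likeness is partly built in. Compared directly, 6 h with 2 h, no member passed in either direction (edgeR), against 3.96% of all genes higher and 2.98% lower. DESeq2 also called 0, the median was 0.00, and at an unadjusted p under 0.05 the count was 1 higher, RPS9 at 0.44, and 0 lower. A p that misses the threshold does not show equal levels, but the median difference was near 0.

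In PEO4 B at 2 h, 73 of the 75 members rose and 0 fell (edgeR, and 0 lower at an unadjusted p under 0.05), where 33.3% of all genes were called higher and 32% lower. The median was 0.83 with quartiles of 0.65 and 1.02. All 3 treated libraries lay above all 3 untreated ones in 73 members, against 32.9% of all genes. The rise exceeded 1 in 20 members against 6.4% of all genes, led by RPS29 at 1.74, RPL38 at 1.72, RPS14 at 1.5, RPL37A at 1.38, RPS21 at 1.35, RPL37 at 1.32, RPL26 at 1.31 and RPL24 at 1.30. RPS26 at 0.22 (edgeR, adjusted p = 0.0668) and RPS9 at -0.29 (edgeR, adjusted p = 0.078) did not pass.

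RPS29 in PEO4 B was at 150.1, 144.9 and 153.5 CPM untreated and at 479.6, 525.1 and 491.5 CPM after 2 h. RPL38 went from 139.2, 144.3 and 142 CPM to 447.3, 480.9 and 474.6 CPM. Both genes moved by more than the spread among libraries, RPS29 with an SE of 0.0691 (edgeR, adjusted p = 3.35e-16) and RPL38 with an SE of 0.0583 (edgeR, adjusted p = 2.83e-17). RPLP0, flat in PEO1 B, was at 2441, 2368 and 2360 CPM untreated in PEO4 B and at 3565, 3853 and 3662 CPM after 2 h, a log2 fold change of 0.63 (SE 0.059, edgeR adjusted p = 1.41e-09). Its 2 h libraries lay above every other RPLP0 value in the B table.

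At 6 h in PEO4 B, 68 members were higher than untreated and 3 lower, beside 34.6% of all genes higher and 35.2% lower, with a median of 0.53 and quartiles of 0.30 and 0.72. In 69 members all 6 h libraries lay above the untreated ones, against 36.3% of all genes. The rise exceeded 1 in 5 members, against 6.26% of all genes: RPL38 at 1.45, RPS29 at 1.29, RPS14 at 1.08, RPL24 at 1.07 and RPL27 at 1.03. The lower ones were RPS9 at -0.34, RPL39 at -0.24 and RPL15 at -0.18. The RPS9 call was lost without any of 5 of the 6 libraries, with -0.21 without untreated replicate 2. RPL13 at -0.02, RPL13A at -0.03 and RPL29 at 0.13 were among those that did not pass.

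From 2 to 6 h in PEO4 B, 69 members fell and 1 rose, beside 31.3% of all genes called lower and 28.9% higher, and the median was -0.34. RPL13A, which is known also as part of a complex that silences inflammatory mRNAs, fell by 0.71 on the log2 scale (SE 0.0795, edgeR adjusted p = 5.74e-08). It was at 2052, 1978 and 2235 CPM untreated, at 3121, 3705 and 3201 CPM at 2 h and at 2002, 2024 and 2116 CPM at 6 h. The 6 h values thus lay among the untreated ones. RPL15, of the large subunit, was at 789.5, 804.1 and 856.7 CPM untreated, at 892.9, 981.3 and 899.5 CPM at 2 h and at 720.9, 728.4 and 717.2 CPM at 6 h, with the last below both earlier groups.

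RPS26, a protein at the mRNA exit site and another Diamond-Blackfan anaemia gene, was the member that rose from 2 to 6 h, by 0.56 (SE 0.0998, edgeR adjusted p = 0.000102). In PEO4 B it was at 142.5, 166.7 and 120.1 CPM untreated, at 163.7, 142.7 and 192.4 CPM at 2 h and at 244.2, 249.6 and 240.2 CPM at 6 h. The untreated and 2 h libraries overlapped, and all 6 h libraries were above both. In PEO1 B it was at 180.7, 169.6 and 177.9 CPM untreated, 223.8, 216.1 and 202.9 CPM at 2 h and 196.9, 219.4 and 198 CPM at 6 h. Its call in PEO1 B at 2 h (0.28, edgeR, adjusted p = 0.0241) was lost without untreated replicate 2 (0.27) or without 2 h replicate 1 (0.26) or 2 (0.29), and in PEO4 B at 2 h it passed without untreated replicate 2 (0.34) or 2 h replicate 2 (0.32). RPL27, RPL35, RPL6, RPS2 and RPS9 did not pass in PEO4 B between 2 and 6 h.

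The difference between the lines was tested directly as an interaction, the PEO4 B response minus the PEO1 B response. At 2 h, 42 members responded more in PEO4 B and 0 less (edgeR, and 0 less at an unadjusted p under 0.05), beside 19.3% of all genes higher and 18% lower, with a median difference of 0.23. With the trend of all genes with coding length removed, an analysis added after the data were seen, 26 members passed and the median difference was 0.15. In 72 of 75 members the estimate was larger in PEO4 B, where the median difference of all genes was 0.02. RPL9, of the large subunit, differed by 0.72 (SE 0.0867, edgeR adjusted p = 4.06e-07). It went from 238.2, 224.8 and 211.5 CPM to 334, 328.9 and 318.9 CPM in PEO1 B, and from 261.9, 273.5 and 278.2 CPM to 614.5, 695.6 and 646.3 CPM in PEO4 B. The untreated PEO4 B libraries already lay above the untreated PEO1 B ones, and the 2 h levels were farther apart.

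RPLP0 differed by 0.62 (edgeR, adjusted p = 2.15e-06), RPSA, the laminin receptor and small-subunit protein, by 0.55 (edgeR, adjusted p = 6.17e-06), and RPL22, which binds a viral RNA and several cellular ones, by 0.46 (edgeR, adjusted p = 4.07e-05). RPS29 at 0.10 (adjusted p = 0.454), RPL35A at 0.10 and RPL11 at 0.10 showed no difference that passed. RPS9 differed by 1.08 on its low counts.

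**Figure D3:**
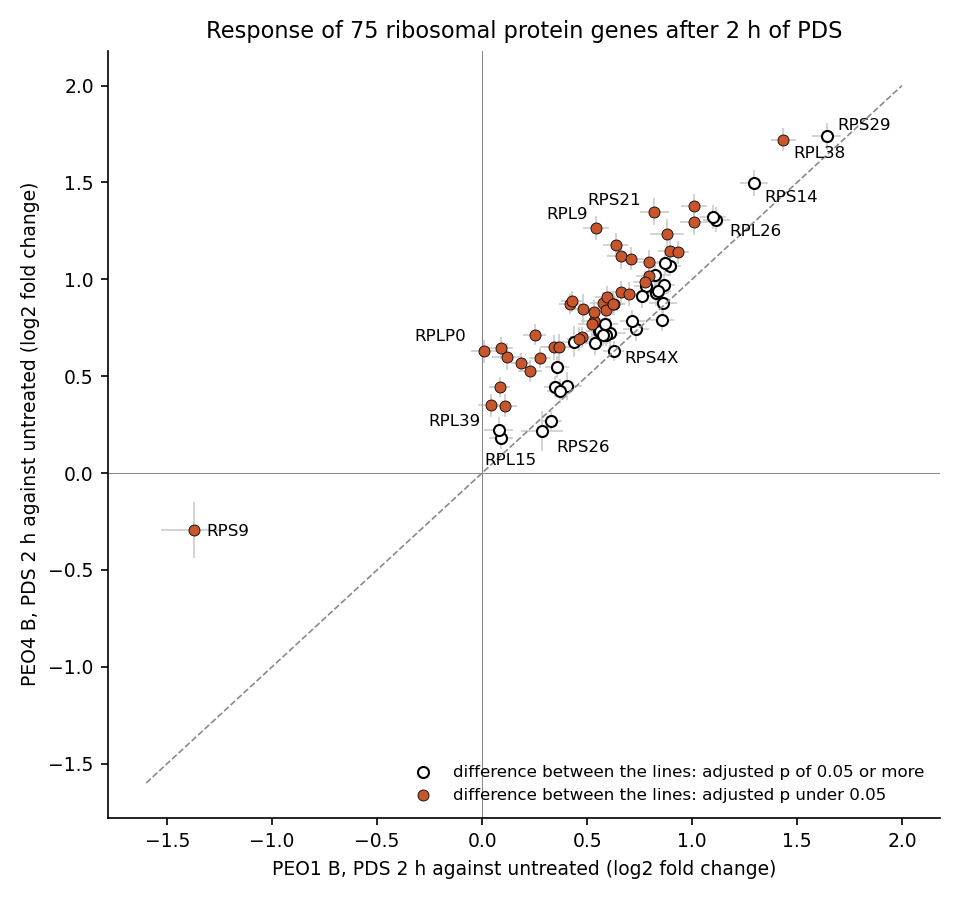
Log2 fold change after 2 h of PDS of the 75 tested members in PEO1 B (x axis) and PEO4 B (y axis), with bars of 1 SE and a dashed line of equal response. Filled points are the 42 members whose difference between lines passed (26 with the coding-length trend removed), and 72 of 75 points lie above the line.

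The order of the members was alike in both lines at 2 h, with Pearson's r of 0.88 and Spearman's rho of 0.89 across the 75 genes, which are not independent and share library depth, kit and counting. Those comparisons used different libraries. At 6 h, r was 0.81 and rho 0.77, and 62 members were higher in both lines, a count not taken over all genes. Of all genes, 27% were higher in PEO1 B and 34.6% in PEO4 B at 6 h. At that time 9 members responded more in PEO4 B and 18 less, beside 24.4% of all genes higher and 23% lower. RPS26 at 0.56 (edgeR, adjusted p = 0.00351), RPS2 at 0.44 (edgeR, adjusted p = 0.000765) and RPL6 at 0.32 (edgeR, adjusted p = 0.000737) responded more in PEO4 B. RPS3, a small-subunit protein that also takes part in DNA repair, responded less, at -0.49 (edgeR, adjusted p = 0.000133), as did RPL13A at -0.46, RPL13 at -0.44 and RPL17 at -0.40. RPS3 was at 2000, 2129 and 1789 CPM after 6 h in PEO1 B and at 1402, 1410 and 1491 CPM in PEO4 B, and from 1020 to 1158 CPM in the 6 untreated libraries of both lines.

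By place in the ribosome, the counts below stand beside those of all 75 members. At 2 h 66 of the 75 rose in PEO1 B and 73 in PEO4 B, and at 6 h 65 and 68 rose. Of all genes, 26.4% and 33.3% were higher at 2 h, and 27% and 34.6% at 6 h. The response at 2 h was larger in PEO4 B for 42 members and for 19.3% of all genes. All 4 stalk proteins, RPLP0, RPLP1, RPLP2 and RPL12, rose in PEO4 B at 2 h and 3 of 4 in PEO1 B, and all 4 differed between the lines at 2 h with a median difference of 0.38. RPLP1 was at 0.34 in PEO1 B and 0.65 in PEO4 B, and RPLP2 at 0.52 and 0.77. The 5S particle proteins RPL5 and RPL11 rose in every PDS comparison with untreated libraries: RPL5 by 0.77 and 0.77 in PEO1 B at 2 and 6 h and by 0.99 and 0.64 in PEO4 B, RPL11 by 0.87, 0.90, 0.97 and 0.77 in the same order. Of the 9 proteins lining the exit tunnel, 8 rose in PEO1 B at each time, 9 in PEO4 B at 2 h and 8 at 6 h. RPL39 was the exception, not passing in PEO1 B and lower in PEO4 B at 6 h. Of the 5 at mRNA entry and decoding, 3 rose in PEO1 B at 2 h, with RPS2 at 0.12 and RPS9 lower, and 4 in PEO4 B.

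RPS6, the target of the S6 kinases downstream of mTOR, rose by 0.80 and 0.78 in PEO1 B and by 1.09 and 0.70 in PEO4 B. RPL41, the shortest member at 75 nt of coding sequence, rose by 0.88 in PEO1 B at 2 h, and RPS27A, made as a fusion with ubiquitin, by 0.48 in PEO1 B and 0.85 in PEO4 B at 2 h. RPS4X, encoded on the X chromosome, was at 0.63 in both lines at 2 h. At 2 h the medians of large and small subunit genes were 0.55 and 0.60 in PEO1 B and 0.78 and 0.88 in PEO4 B, a difference that was not tested. Of the 17 tested genes mutated in Diamond-Blackfan anaemia, 16 rose in each line at 2 h, with RPL15 the exception in PEO1 B and RPS26 in PEO4 B. Of all 75 members, 66 rose in PEO1 B and 73 in PEO4 B, beside 26.4% and 33.3% of all genes. The count of 16 is thus near the share of the members as a class.

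Ribosomal protein transcripts are short, and genes with short coding sequences were more often higher after PDS than others. The members' coding lengths ran from 75 nt (RPL41) to 1281 nt (RPL4) with a median of 456 nt, against 1419 nt for 14118 tested coding genes, the stop codon not counted. Among other genes with up to 300 nt of coding sequence, 51.2% were higher in PEO1 B at 2 h and 8.81% lower, against 25.8% and 27.3% among those over 900 nt. The medians of the other genes in 5 classes from up to 300 nt to over 900 nt were 0.27, 0.24, 0.15, 0.11 and -0.03. The members' medians in the same classes were 0.88, 0.63, 0.57, 0.53 and 0.27, above the other genes in each class, with 9, 26, 18, 19 and 3 members.

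In PEO4 B at 2 h the other genes' medians were 0.42, 0.36, 0.28, 0.22 and -0.04, and the members' 1.32, 0.89, 0.82, 0.74 and 0.59. At 6 h the members' medians ran from 0.96 to 0.21 in PEO1 B and from 0.89 to 0.26 in PEO4 B. Among the members themselves, log2 fold change went down with coding length, with Spearman's rho of -0.32 and -0.36 in PEO1 B at 2 and 6 h and -0.32 and -0.30 in PEO4 B, as a description over 75 genes. With the length of the whole transcript, rho was -0.08 and -0.11 in PEO1 B and -0.07 and -0.05 in PEO4 B. In the untreated line pairs rho with coding length was -0.10 and -0.11. RPL39 is an exception, among the shortest members and yet at 0.08 in PEO1 B at 2 h and 0.22 in PEO4 B.

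**Figure D4:**
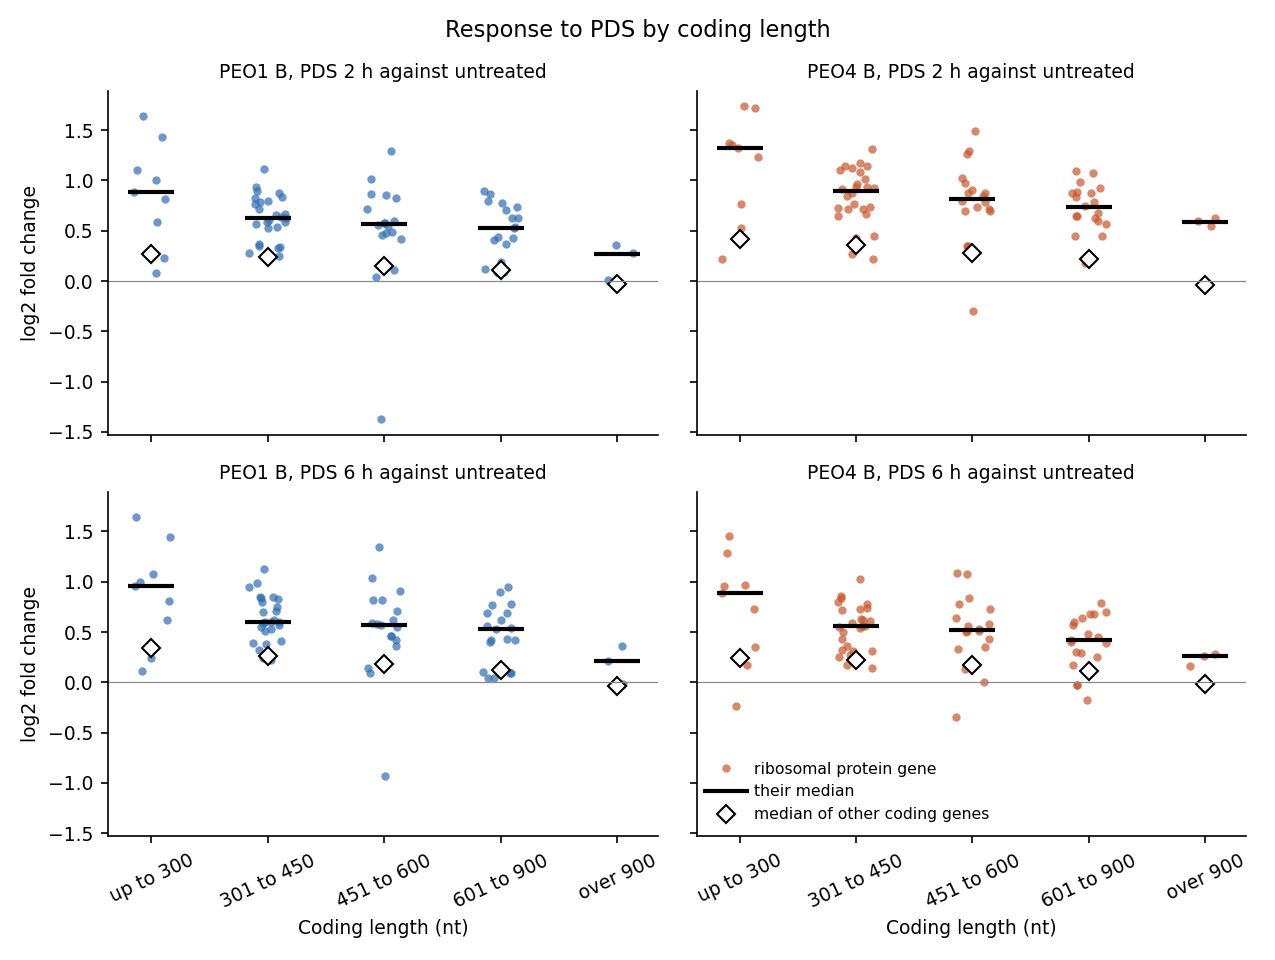
Log2 fold change after PDS in 4 panels (each line at 2 h and 6 h) by coding-length class in nt, with a point for each member, a bar at the members' median and a diamond at the median of the other coding genes. In all 4 panels the members' median lies above the diamond in all 5 classes, and both go down toward longer coding sequences.

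By the length of the whole transcript, the other genes differed from the pattern by coding length in the shortest class. There, under 600 nt, 753 other genes had a median of -0.42 in PEO1 B at 2 h, while the classes from 600 nt upward had medians of 0.20, 0.12, 0.01 and -0.10, going down with length as by coding length. The 12 members under 600 nt had a median of 0.69. Removing the trend with transcript length from all genes left the members' medians at 0.47 and 0.44 in PEO1 B at 2 and 6 h and at 0.64 and 0.44 in PEO4 B. Removing the trend with coding length, an analysis added after the data were seen, left 0.39, 0.37, 0.54 and 0.35, with 61, 60, 66 and 58 members still higher. What length stands for in these libraries was not tested.

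Members with a pyrimidine start had a median log2 fold change of 0.59 in PEO1 B at 2 h, where 44 of 49 tested were higher. The 12 tested members without one had a median of 0.44, and 10 were higher. In PEO4 B at 2 h the values were 0.79 and 0.60, with 48 of 49 and 11 of 12 higher. Most members of both kinds rose in both lines, and no test was run on the difference between them.

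PDS binds G-quadruplexes, so the promoters were also searched on both strands for 4 runs of GGG separated by 1 to 7 bases. The motif was in 6 of 62 members, or 9.68%, against 24.1% of all promoters in the table. Windows ran from 250 bases before to 50 after the annotated start. Among the 12445 promoters of genes tested in the B table the share was 33.7%. The median content of G and C was 59.0% in the members, 58.3% in all promoters and 64.7% in those of tested genes. The part of base content in the motif shares was not tested. The members were RPL18, RPLP2, RPS16, RPS19, RPS26 and RPS28. Their median log2 fold change was 0.54 in PEO1 B at 2 h and 0.75 in PEO4 B, beside 0.59 and 0.79 for the members without a match. The matches are given for those 3 with the shortest letters, with the G runs in capitals.

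RPL18, chr19:48619184-48619201, + strand, opposite the gene: GGGctGGGGtGGGcGGGG
RPS26, chr12:56041710-56041728, + strand, as the gene: GGGaaGGGGGGGaGGGGGG
RPLP2, chr11:809807-809827, + strand, as the gene: GGGctGGGaaGGGGGaGGGGG

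Counted from the annotated start, the match lay at -23 to -6 in RPL18, -208 to -190 in RPS26 and -160 to -140 in RPLP2. A match is a description of the letters and does not show that a structure forms in cells. Members with a small nucleolar RNA or microRNA gene within their span, 33 of those tested, had a median of 0.54 in PEO1 B at 2 h, and those with none 0.62.

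The untreated pairs ask how PEO4 differs from PEO1 without treatment. In the A pair, 10 members were higher in PEO4 A and 48 lower, beside 30.1% of all 15882 tested genes higher and 31.6% lower, with a median of -0.32. In the B pair, 24 were higher in PEO4 B and 27 lower, beside 34% and 34.6% of all genes, with a median of -0.04. In the B pair 68.6% of all genes were called in either direction, near the share of the members. In the A pair more members were lower than higher.

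RPL38 was the highest in the A pair, at 159.6, 140.9 and 149.3 CPM in PEO1 A and 350.4, 341 and 343.3 CPM in PEO4 A, a log2 fold change of 1.20 (SE 0.0745, edgeR adjusted p = 3.27e-08). In the B pair it was at 65.73 to 68.67 CPM in PEO1 B and 139.2 to 144.3 CPM in PEO4 B, a log2 fold change of 1.09 (SE 0.0594, edgeR adjusted p = 2.84e-14). RPL38 was thus higher in PEO4 in both pairs, with no overlap of libraries. RPL8 was the most different in the B pair, at 1087, 1102 and 1155 CPM in PEO1 B and 2656, 2972 and 2670 CPM in PEO4 B, a log2 fold change of 1.31 (edgeR, adjusted p = 1.46e-15). In the A pair the RPL8 difference was 0.34 (edgeR, adjusted p = 0.0035).

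RPL35A, of the large subunit and mutated in some Diamond-Blackfan anaemia, was the lowest in the A pair, at 730.6, 625.3 and 681.5 CPM in PEO1 A and 342.7, 309.7 and 325.3 CPM in PEO4 A. The log2 fold change was -1.06 in the A pair (SE 0.0845, edgeR adjusted p = 3.1e-07) and -0.66 in the B pair (edgeR, adjusted p = 9.18e-10), with no overlap in the A pair. RPS2 was at 4720, 4503 and 4268 CPM in PEO1 A and at 1911, 2679 and 2721 CPM in PEO4 A, with the first PEO4 A library lower than the others. RPS2 was at -0.88 (SE 0.129, edgeR adjusted p = 7.17e-05) in the A pair and at -0.17 in the B pair (edgeR, adjusted p = 0.0324). RPL22 was higher in PEO4, with log2 fold changes of 0.63 and 0.66 in the A and B pairs, and RPL10, which joins the large subunit late in its assembly, was lower, at -0.63 in the A pair.

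The pairs used separate libraries. Counts over both pairs together were taken for the members only. Of all genes, 30.1% were higher and 31.6% lower in the A pair, and 34% and 34.6% in the B pair. Of the 75 members, 10 were higher in PEO4 in both (RPL22, RPL30, RPL35, RPL37A, RPL38, RPL6, RPL8, RPS10, RPS21 and RPS7) and 22 lower in both. None was higher in A and lower in B, and 6 were lower in A and higher in B, which were RPL18, RPL28, RPL7, RPL9, RPLP1 and RPS27. Over the 75 genes r was 0.73 and rho 0.62, as a description over genes that share the cell lines. RPS10 in the A pair was at 1.495 to 2.555 CPM in PEO1 A and 2.804 to 4.071 CPM in PEO4 A, on few counts, and its call (0.63, edgeR, adjusted p = 0.0441) was lost without PEO1 A replicate 1 (0.69, edgeR, adjusted p = 0.0675) or replicate 2 (0.44, edgeR, adjusted p = 0.165), and without PEO4 A replicate 2 (0.67) or 3 (0.47).

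**Figure D5:**
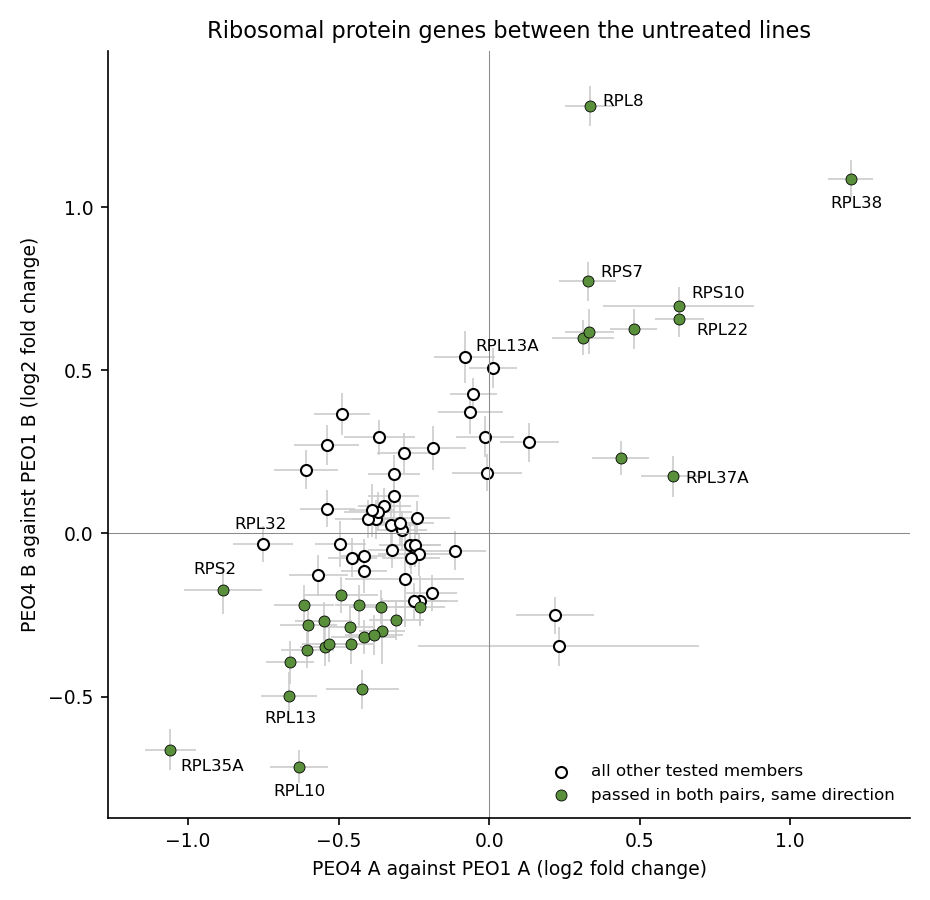
Log2 fold change of PEO4 against PEO1 for the 75 tested members in the A pair (x axis) and the B pair (y axis), with bars of 1 SE. Filled points are the 32 members that passed in the same direction in both pairs, 10 higher and 22 lower. RPL38, at 1.20 and 1.09, is the farthest right, and RPL8, at 1.31 in the B pair, is the farthest up.

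Other genes of translation were read from lists. Of all genes, 26.4% and 27% were higher in PEO1 B at 2 and 6 h, and 33.3% and 34.6% in PEO4 B. The shares lower were 26.2%, 26%, 32% and 35.2% in the same order. Of 10 tested paralogs and other ribosomal proteins, 9 rose after PDS in each of the 4 comparisons with untreated libraries. RPL36AL rose by 0.91 in PEO1 B and 1.37 in PEO4 B at 2 h, and RACK1, the scaffold on the small subunit, was at 0.72 in PEO1 B at 2 h. RPL22L1, the paralog of RPL22, was lower in PEO4, with a log2 fold change of -1.08 in both untreated pairs, where RPL22 itself was higher. Of 17 translation factors whose mRNAs also carry TOP motifs, 16 rose in PEO1 B at 2 and 6 h and in PEO4 B at 2 h, and 14 rose and 2 fell in PEO4 B at 6 h. From 2 to 6 h in PEO4 B, 13 of the 17 fell and 2 rose, beside 31.3% and 28.9% of all genes.

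Of 77 nuclear genes of mitochondrial ribosomal proteins, 62 rose and 3 fell in PEO1 B at 2 h. In PEO4 B at 2 h, 69 rose and 2 fell. Of all genes, 26.4% were higher and 26.2% lower in PEO1 B, and 33.3% and 32% in PEO4 B. From 2 to 6 h in PEO4 B, 39 of the 77 rose and 13 fell, beside 28.9% and 31.3% of all genes. The difference from the members' counts was not tested. Of 71 nuclear genes of oxidative phosphorylation, 66 rose in PEO1 B at 2 h and 69 in PEO4 B, beside the same shares of all genes. Of 13 regulators of TOP mRNAs, 6 rose and 1 fell in PEO1 B at 2 h, where 26.4% of all genes were higher and 26.2% lower. In PEO4 B 7 rose and 5 fell, beside 33.3% and 32% of all genes. MTOR fell by 0.49 in PEO1 B and by 0.64 in PEO4 B at 2 h. DEPTOR, an inhibitor of mTOR, rose from a mean of 2.33 CPM to 118.8 CPM in PEO4 B at 2 h, a log2 fold change of 5.70 (SE 0.219, edgeR adjusted p = 5.88e-12), and stood at 10.78 CPM at 6 h.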

How the data were processed

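Gene counts were analysed from 24 RNA libraries, 6 in an untreated table (A) and 18 in a table with and without PDS (B). Per the labels, the authors trimmed reads with fastp, aligned them to hg38 with STAR and counted them per gene with featureCounts, and deposited raw counts, with no versions. RNA was polyA-enriched. The gene annotation and the strand setting of the counting are not given in the sources used here, so overlapping and antisense genes cannot be told apart. The A kit was directional. The study used DESeq2 and iDEP. Library totals (32528913 to 63882077 in A and 18699929 to 43713947 in B) set the precision of each level, and errors given cover only the spread between libraries and the count model.

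Counts were tested as deposited with edgeR 4.0.16 in R 4.3.3 (filterByExpr with a minimum count of 10, TMM scaling, robust quasi-likelihood fit, 1 mean per group), each table in its own fit, with Benjamini-Hochberg adjustment over all 15882 or 17020 tested genes and a threshold of 0.05. CPM are TMM-scaled. Standard errors are those of the log2 fold changes. The labels gave the groups and replicate numbers. Same-numbered libraries did not deviate together (correlations of deviations from group means of -0.043 to 0.03 in A and -0.185 to 0.16 in B), so no block was used. Replicate libraries differed by more than sampling noise (chi-square per degree of freedom 2.08 to 48.9). Lines without readable counts, 2 in A and 1 in B, were left out. On simulated counts with the A comparison's spread, 56 of 100 genes changed by 0.5 and 100 of 100 changed by 1 on the log2 scale were recovered, with 5 false calls among 15717 genes. For PEO1 B at 2 h, 90 of 100 and 100 of 100 were recovered, with 6 false calls among 16604. Within each simulation every gene had the same spread, and few genes were changed, none of them with low counts. The recovery therefore does not carry over to members with few counts or to a shift of many genes.

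Transcript and coding lengths came from GENCODE release 44 and RefSeq (transcript length known for 95.4% and 94.2% of tested genes), promoter letters from RefSeq GRCh38.p14, and second copies from alignment with minimap2 2.31-r1302 of transcripts to the 261 alternative contigs (at least 90% aligned at 99% identity). The members and the gene lists were chosen with earlier results of these data known. Members named in each comparison were the 4 with the largest positive and the 4 with the largest negative log2 fold change among those that passed, 12 fixed genes, and the 3 highest and 3 lowest in level per length, while others are named because they did not pass, exceeded 1, or share a list. Alternatives were other scalings, filters and tests, removal of a length trend, a replicate block and leaving out each library. No test was run over the members as a list. Some genes are not reported here by name.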

Additional observations from a re-analysis of the deposited data

Results flagged for a closer look

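Responses to PDS that differed between the lines by the interaction test are gathered here, as PEO4 B response minus PEO1 B response on the log2 scale with edgeR's adjusted p over all tested genes. At 2 h, 42 members responded more in PEO4 B (26 with the coding-length trend removed), and 0 responded less, beside 19.3% and 18% of all genes. Of the named members these were RPS9 at 1.08, RPL9 at 0.72, RPLP0 at 0.62, RPSA at 0.55, RPL22 at 0.46, RPS27A at 0.36, RPL41 at 0.35, RPLP1 at 0.31, RPS6 at 0.29, RPLP2 at 0.25 and RPL5 at 0.21. The call was lost for RPLP2 without any of 9 libraries (0.18 without PEO1 B 2 h replicate 3), for RPL5 without any of 8 (0.18 without PEO1 B untreated replicate 1) and for RPL41 (0.28 without PEO1 B untreated replicate 1, PEO1 B 2 h replicate 3 or PEO4 B 2 h replicate 2).

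At 6 h, 9 members responded more in PEO4 B and 18 less, beside 24.4% and 23% of all genes, so neither count of the 75 exceeded the background by much and the first lay below it. RPS9 at 0.59, RPS26 at 0.56, RPS2 at 0.44, RPL6 at 0.32 and RPLP0 at 0.30 responded more. RPS3 at -0.49, RPL13A at -0.46, RPL13 at -0.44, RPL17 at -0.40, RPL39 at -0.35 and RPS4X at -0.17 responded less. The call was lost for RPS9 without PEO1 B untreated replicate 1 (0.53), PEO1 B 6 h replicate 1 (0.49) or PEO4 B untreated replicate 3 (0.48), and for RPS4X without any of 9 libraries (-0.15 without PEO1 B untreated replicate 3). RPS9 rests on 65 to 149 counts per library. Library depth and the ribosomal RNA share moved with PDS in both lines, and their part in these differences was not tested.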

How the results depend on the processing

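Every count of members that passed higher after PDS stayed within 1.5 times of the reported one under other scalings, filters, tests and DESeq2, and 1785 values of named members kept their call and, where called, their direction. Small counts of lower members moved. With library totals, which moved the median of all genes by -0.17, -0.17, -0.13 and -0.19 in the order PEO1 B 2 h, PEO1 B 6 h, PEO4 B 2 h and PEO4 B 6 h, the members called lower were 2, 2, 1 and 6. With upper-quartile scaling there was 1 in PEO4 B at 2 h. With the transcript-length trend removed they were 2, 2 and 1 in the first 3 comparisons, and with the coding-length trend removed, added after the data were seen, 4, 3, 2 and 7. The coding-length trend also left 26 in place of 42 members with a larger response in PEO4 B at 2 h.

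The sign turned for RPLP0 in PEO1 B at 2 h (-0.14 with library totals, -0.12 with the transcript-length trend removed), for RPL39 with the coding-length trend removed (-0.34 in PEO1 B at 2 h, -0.34 at 6 h and -0.32 in PEO4 B at 2 h) and for RPL22 in PEO1 B at 6 h (-0.01). By coding length the shortest members had medians of 0.88, 0.96, 1.32 and 0.89 in the 4 comparisons and other short genes 0.27, 0.34, 0.42 and 0.24. By the median length of a gene's transcripts, other short genes stood at -0.12, -0.10 and -0.09 in the first 3 comparisons, and the members in PEO4 B at 6 h at 0.56. Which genes fall in the shortest class differs between these definitions by construction.

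Leaving out 1 library gave 7 to 10 members higher and 40 to 55 lower in the A pair, 24 to 25 and 25 to 26 in the B pair, 65 to 66 higher in PEO1 B at 2 h, 64 to 67 at 6 h, 72 to 74 in PEO4 B at 2 h and 67 to 69 at 6 h, and 28 to 46 with a larger response in PEO4 B at 2 h. The count of members lower in PEO4 B at 2 h ran from 0 to 1, with 1 without PEO4 B untreated replicate 3. Of named members' values, 56 lost and 8 gained the call, among them RPS10 in the A pair, RPS26 in PEO1 B at 2 h, RPL39 in PEO4 B at 2 h (0.14 without untreated replicate 1) and RPS9 in PEO4 B at 6 h. With the replicate block, the A pair had 52 lower in place of 48, and the difference at 2 h 40 in place of 42. No count of members moved by over 1.5 times with the block. The numbers do not pair the libraries.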

Other observations

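Genes that act with the ribosomal proteins moved in the same libraries. Of 7 chaperones that carry single ribosomal proteins to the assembling subunits, 6 rose in PEO1 B at 2 h and 5 at 6 h. In PEO4 B 5 rose and 1 fell at 2 h, and 7 rose at 6 h. Of all genes, 26.4% and 27% were higher in PEO1 B at 2 and 6 h, and 33.3% and 34.6% in PEO4 B, where 32% were lower at 2 h. BCCIP, a chaperone of RPL23, went from a mean of 51.92 CPM to 90.79 CPM in PEO1 B at 2 h, a log2 fold change of 0.81 (edgeR, adjusted p = 1.83e-10), and in PEO4 B from 35.42 CPM to 80.53 CPM at 6 h, a log2 fold change of 1.18 (edgeR, adjusted p = 4.66e-14). LTV1, which acts in assembly of the small subunit, was at 0.77 in PEO1 B and at 0.84 in PEO4 B at 2 h. NPM1, a nucleolar protein that takes part in ribosome assembly, rose by 0.84 in PEO1 B and 0.91 in PEO4 B at 2 h and by 1.09 in PEO4 B at 6 h.

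In PEO1 B at 2 h CDKN1A, an inhibitor of cyclin-dependent kinases, rose from a mean of 8.88 CPM to 18.2 CPM, a log2 fold change of 1.04 (edgeR, adjusted p = 5.11e-06), and in PEO4 B it went from 25.63 CPM to 18.66 CPM, a log2 fold change of -0.46 (edgeR, adjusted p = 0.00376). The difference between the responses was -1.50 (edgeR, adjusted p = 4.51e-06). In the untreated pairs CDKN1A was higher in PEO4, at 1.35 in the A pair and 1.53 in the B pair.

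Of the 13 regulators of TOP mRNAs, 6 rose and 3 fell in PEO4 B from 2 to 6 h, beside 28.9% and 31.3% of all genes. LARP1 rose by 0.76 and MTOR by 0.69, and DEPTOR was at -3.46. EEF1A1, the elongation factor and a TOP mRNA gene, was at -0.36 and EIF4B at -0.23 in PEO4 B at 6 h against untreated, while NPM1 stayed higher. MRPL15, a mitochondrial ribosomal protein, was at 1.59 in PEO4 B at 6 h, and MRPL23 was lower in PEO1 B at 2 h, at -0.51. UQCRHL, a near copy of UQCRH whose reads the counting could split, was at 3.05 in PEO1 B at 2 h.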
